A study of Mus musculus with 16 samples.

Results

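The response of the mouse lung to bleomycin was described for animals whose lungs had also received an inhibitor of the microRNA miR-199a-5p. The 8 arrays were chosen by their titles out of 16 arrays in all: 5 were of lungs given bleomycin and LNA-miR-199a-5p, and 3 were of lungs given PBS and LNA-miR-199a-5p. All animals were C57BL/6 mice aged 9 to 12 weeks. The inhibitor is an oligonucleotide built with locked nucleic acid (LNA) bases. It was given through the trachea, 5 mg/kg each time, on 3 occasions: 4 and 2 days ahead of bleomycin or PBS, and 4 days afterwards. Bleomycin was given at 1 unit/kg and PBS is its vehicle. Every animal in this comparison thus carried the inhibitor, the PBS lungs included. The other 8 arrays, with the same treatments after LNA-control (5 bleomycin, 3 PBS), were used to estimate the spread between arrays and to test where the response differed. The labels give no day of collection, no sex, and no statement that each array was a separate animal, so the p-values measure a spread between arrays that may be partly technical.

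Bleomycin is a drug that cuts DNA, injures the alveolar wall and is used in mice to bring on inflammation followed by scarring. An LNA inhibitor binds its microRNA and keeps it from its target messenger RNAs. miR-199a-5p is made in mesenchymal cells such as fibroblasts, and the membrane protein gene Cav1 is among its described targets. A microRNA finds its targets mainly through its seed, which is why the seed is marked in capitals (bases 2 to 8) in the mature mouse sequence below. RefSeq places the same mature sequence at 2 loci of the build GRCm38.p6, chr9:21496537-21496559 on the minus strand and chr1:162217844-162217866 on the plus strand.
miR-199a-5p: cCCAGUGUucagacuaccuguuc

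Messenger RNA of whole lung was measured on 1-colour Agilent arrays from 0.2 ug of Cy3-labelled RNA per array. The unit is the log2 intensity, and 20863 genes entered the test. Changes are log2 differences, bleomycin minus PBS, with the standard error (SE) from 1 limma model of all 16 arrays. A gene was called at an adjusted p under 0.05. Levels of different genes come from different probes and were not set against each other. RNA integrity numbers were 8 to 10 in bleomycin lungs and 8 or 9 in PBS lungs. The lung markers Sftpc and Sftpb (type 2 cells), Ager (type 1 cells), Scgb1a1 (club cells), Foxj1 (ciliated cells) and Pecam1 (endothelium) were read on every array, the lowest value among them over the 8 arrays being 10.61 (Pecam1), where the table starts at 4.615. Sftpc and Scgb1a1 lay at or near the highest value that quantile normalization leaves, 18.32, so a difference there would be compressed.

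One array stood apart. Over the 8 arrays the first principal component held 54.0% of the variance and put PBS replicate 3 at 50.6, against 8.6 and lower for the other arrays. This array was low in genes of squamous epithelium, skeletal muscle and fat: Krt13, a keratin of stratified epithelium, was 14.74 to 15.73 in bleomycin lungs, against 14.81, 14.01 and 5.59 in PBS lungs, and Ucp1, the uncoupling protein of brown fat, was 10.41 to 12.18 in bleomycin lungs, against 13.86, 13.00 and 5.56. The second component, 26.9% of the variance, put bleomycin replicates 5 and 4 (22.6 and 14.8) together with PBS replicate 3 (14.6), with the other PBS arrays at -21.2 and -16.4. Results are therefore given with and without PBS replicate 3, and without bleomycin replicates 4 and 5 where that matters.

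Bleomycin changed 2786 of 20863 genes (13.4%), of which 1525 were higher (7.31%) and 1261 lower (6.04%). The changes were small: 100 genes changed by at least 2-fold, 53 of them higher. The median over all genes was 0.008. Without PBS replicate 3 there were 1186 called genes (5.68%; 3.5% higher and 2.18% lower), of which 1099 were among those called with all arrays. The count was 1360 without PBS replicate 1, 1400 without PBS replicate 2, 1721 without bleomycin replicate 5 and 820 (3.93%; 2.25% higher and 1.68% lower) without bleomycin replicates 4 and 5. Fitting the 8 arrays alone left 271 called genes. A total of 617 genes, 346 higher and 271 lower, were called each time any 1 of the 8 arrays was left out. Bleomycin and PBS arrays were fully separate for 4315 genes (20.7%), 10.5% higher and 10.1% lower.

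**Figure D1:**
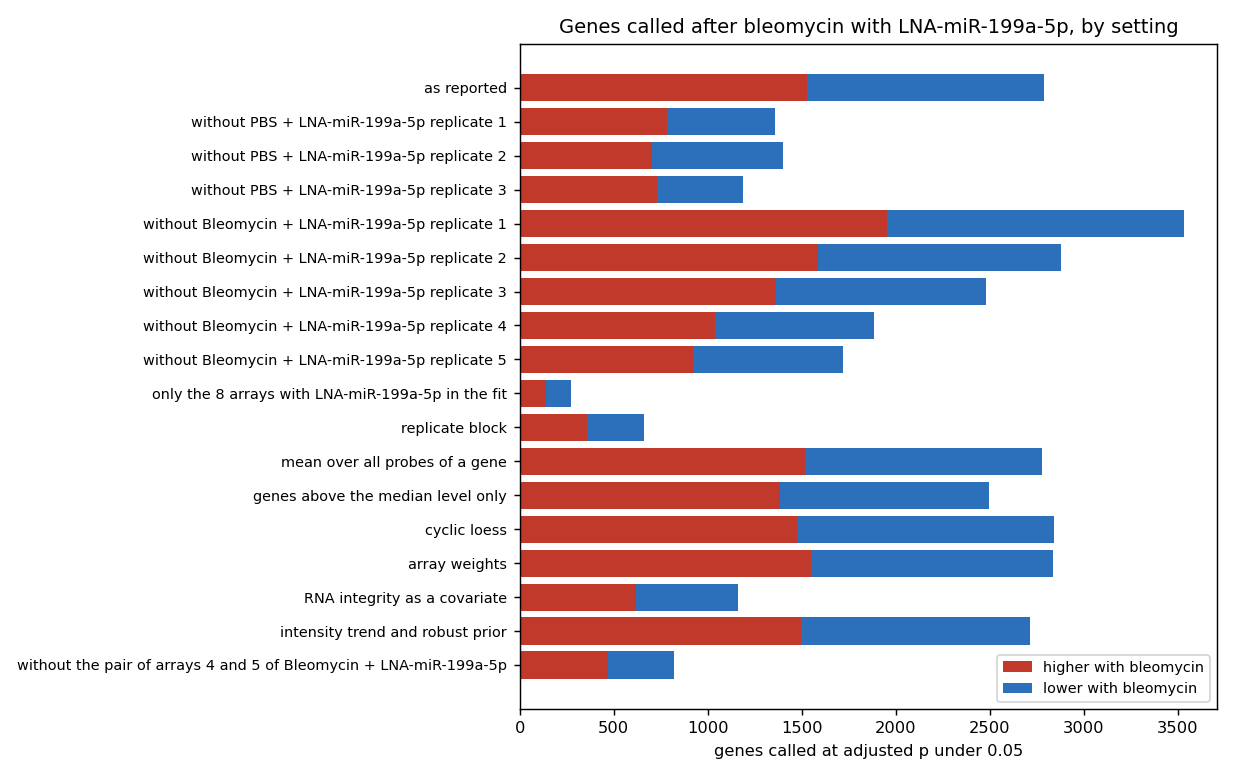
Number of genes called at an adjusted p under 0.05 for bleomycin against PBS with LNA-miR-199a-5p (horizontal axis), with the genes higher (red) and lower (blue) stacked, for the fit as reported and for each alternative. The count is 2786 as reported, 1186 without PBS replicate 3 and 271 when only the 8 arrays enter the fit.

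Complement, the plasma and tissue protein cascade that tags and lyses targets, had the largest share of members called among the 47 lists examined. Of 20 measured members 11 rose (55.0%, against 7.31% of all genes) and 1 fell, with a median of 0.47 against 0.008 over all genes. Without PBS replicate 3, 10 rose and 1 fell, and leaving out any 1 of the 8 arrays gave 9 to 12. In whole lung, more or fewer cells of a type and more or less RNA per cell cannot be told apart, here and in all that follows.

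Cfp encodes properdin, which holds the convertase of the alternative pathway together. It was 12.34, 12.43, 12.68, 12.75 and 12.90 in bleomycin lungs and 11.61, 11.56 and 11.43 in PBS lungs. Every bleomycin array was above every PBS array (difference 1.09 ± 0.13 SE, 2.12-fold, limma adjusted p = 0.00122). C1qa, C1qb and C1qc encode the chains of C1q, which starts the classical pathway and is made largely by tissue macrophages. C1qb was 10.37, 10.55, 10.77, 10.71 and 10.99 in bleomycin lungs, against 9.84, 9.64 and 9.72 in PBS lungs. C1qc was 11.64, 11.97, 12.09, 12.13 and 12.25 in bleomycin lungs, against 11.11, 11.01 and 10.84 in PBS lungs. The groups did not overlap for any of the 3 chains, which rose by 0.94 ± 0.17 (C1qa), 0.94 ± 0.17 (C1qb) and 1.03 ± 0.15 (C1qc), and the 10 rows of the table for C1qc all rose.

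The central component C3 was 16.49 to 16.90 in bleomycin lungs and 15.86 to 16.08 in PBS lungs, a rise of 0.65 ± 0.11 (adjusted p = 0.00446). C2 and C1s1, proteases of the classical pathway, rose by 0.52 ± 0.08 and 0.54 ± 0.10. C3ar1, a receptor for the fragment C3a, rose by 0.56 ± 0.11, with 6.63 to 7.12 in bleomycin lungs and 6.26 to 6.34 in PBS lungs. Cfd, the protease of the alternative pathway that fat cells also secrete as adipsin, was 15.69 to 16.06 in bleomycin lungs, against 14.97, 14.67 and 14.17 in PBS lungs. Its rise was 1.30 ± 0.22, and 1.08 without PBS replicate 3 (adjusted p = 0.0276). The summed level of 17 fat-cell genes, Cfd itself among them, was also higher. This sum was 17.55 to 17.69 in bleomycin lungs and 15.91 to 17.44 in PBS lungs (log2 of summed intensity). Since Cfd enters the sum, the 2 rises are not separate, and the part of fat cells in the rise of Cfd was not tested. The member that fell was Cd55, which shields host cells by speeding the decay of convertases: 11.29 to 11.56 in bleomycin lungs and 11.66 to 11.76 in PBS lungs (-0.30 ± 0.08, adjusted p = 0.02). Its call was lost without PBS replicate 1 or without PBS replicate 2, with adjusted p up to 0.0696.

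**Figure D2:**
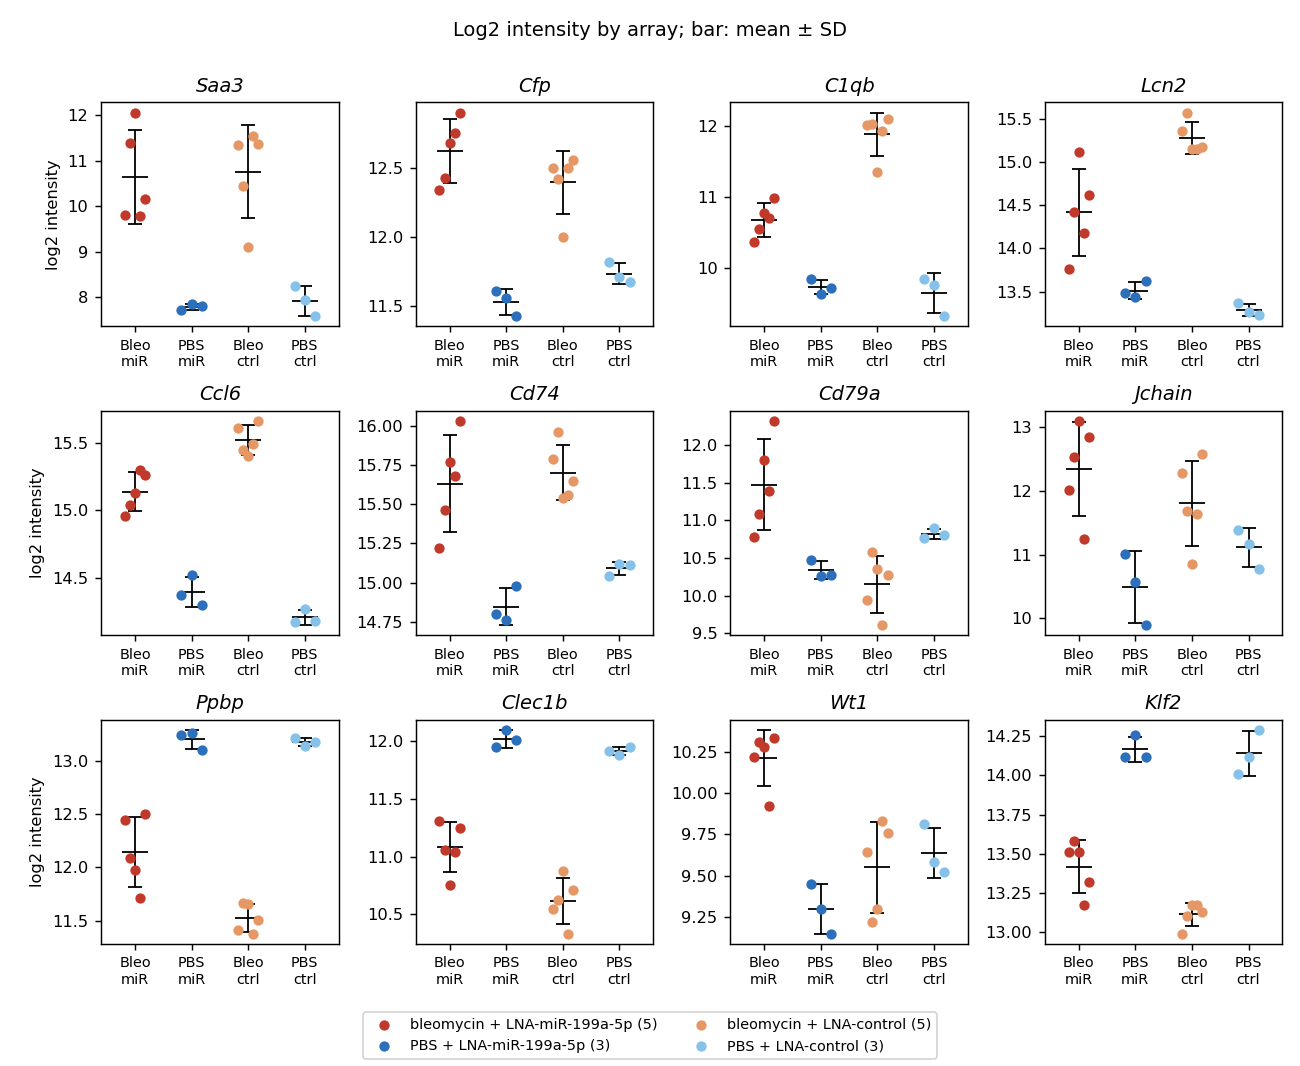
Log2 intensity of 12 genes on each array (points), with the mean and SD of each group (black), for bleomycin and PBS lungs with LNA-miR-199a-5p (dark red, dark blue) and with LNA-control (light orange, light blue). With LNA-miR-199a-5p, every bleomycin array lies above every PBS array for the first 8 genes and Wt1, and below for Ppbp, Clec1b and Klf2.

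Because C1qb and C1qc rose together, the 250 bases before their RefSeq start sites are shown (GRCm38.p6, both on the minus strand, chr4:136886201-136886450 and chr4:136892915-136893164). Capitals mark matches on either strand to 4 motifs. The core of the myeloid factor PU.1 was searched as GAGGAA. Erythroid and megakaryocytic GATA factors were searched by the letters AGATAA. For the C/EBP family the letters were TTGCNNAA, with N any base, and NF-kB was searched by its consensus. In these windows no match overlaps another. Of 32851 promoters of this length, 23.3% hold the PU.1 core, 10.0% the letters of GATA factors, 9.6% the C/EBP letters and 7.3% the NF-kB consensus. C1qb holds 1 PU.1 core read along the gene, and C1qc holds 1 on the opposite strand and 1 NF-kB match. These are matches of letters, and no binding was measured.
C1qb: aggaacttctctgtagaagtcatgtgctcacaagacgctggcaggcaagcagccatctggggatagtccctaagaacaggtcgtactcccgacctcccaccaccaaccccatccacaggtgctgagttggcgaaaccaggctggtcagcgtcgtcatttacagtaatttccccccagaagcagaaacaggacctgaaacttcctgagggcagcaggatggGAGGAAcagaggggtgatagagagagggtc
C1qc: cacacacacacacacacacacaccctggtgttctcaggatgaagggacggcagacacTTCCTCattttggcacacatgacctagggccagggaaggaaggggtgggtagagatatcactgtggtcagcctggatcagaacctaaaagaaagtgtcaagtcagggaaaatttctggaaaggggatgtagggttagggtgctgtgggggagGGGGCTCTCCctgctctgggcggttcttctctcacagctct

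Some genes of a list named for inflammatory and monocyte-derived macrophages rose as well. Of 28 measured members 13 rose (46.4%) and none fell, the median was 0.33, and 9 rose without PBS replicate 3. The list shares the C1q chains with complement. Leaving out any 1 of the 8 arrays gave 9 to 13. Trem2, a lipid receptor of macrophages, was 10.52, 10.62, 10.54, 10.76 and 11.00 in bleomycin lungs, against 9.98, 10.04 and 10.03 in PBS lungs. All bleomycin arrays were higher, and the rise of 0.67 ± 0.10 amounted to 1.6-fold (adjusted p = 0.00313). Fcer1g, the signalling chain of Fc receptors, rose by 0.63 ± 0.09 and Apoe, the lipid carrier, by 0.56 ± 0.10. Gpnmb, a glycoprotein of lipid-laden macrophages, rose by 0.46 ± 0.11 and lost its call without PBS replicate 3 (adjusted p = 0.067). Msr1 (0.84), Adgre1 (0.50) and Cd14 (0.33) were also called, and Adgre1 lost its call without PBS replicate 3 (adjusted p = 0.0885). Of the 15 members that did not pass, Ccr2 was at -0.08, Itgam at -0.41, Fcgr1 at 0.05 and Cd68 at 0.17.

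Spp1 and Mmp12, which mark macrophages of fibrotic lung, did not pass. Spp1, which encodes osteopontin, was 10.57, 10.82, 10.53, 10.41 and 10.33 in bleomycin lungs and 10.52, 10.57 and 10.56 in PBS lungs. The groups overlapped, with a difference of -0.02 ± 0.22 (adjusted p = 0.966). Mmp12, the macrophage elastase, was 5.90, 6.73, 7.12, 5.84 and 5.93 in bleomycin lungs and 5.62, 5.92 and 5.99 in PBS lungs, where bleomycin replicates 2 and 3 alone stood above all PBS arrays (0.46 ± 0.25, adjusted p = 0.22). Of 15 alveolar macrophage genes 4 rose and none fell, and 1 rose without PBS replicate 3. Of 12 genes of alternative activation 1 rose, Ccl24, an eosinophil attractant, by 1.62 ± 0.33.

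A group of genes known from large macrophages of body cavities and from other resident macrophages was picked after the values were seen, so their rise is a description. Prg4 (lubricin) was 9.78, 9.33, 8.28, 9.87 and 9.08 in bleomycin lungs, against 7.42, 6.91 and 6.29 in PBS lungs (2.40 ± 0.34). Cd5l, a secreted scavenger protein, was 8.67 to 9.24 in bleomycin lungs and 7.50, 7.23 and 6.24 in PBS lungs (2.04 ± 0.31). Neither gene overlapped between the groups, and PBS replicate 3 was the lowest array for both. Fcna (a lectin), Alox15 (a lipoxygenase), Vsig4 (a complement receptor) and Folr2 (a folate receptor) rose by 2.00, 1.92, 1.80 and 1.02, and by 1.52, 1.69, 1.49 and 0.86 without PBS replicate 3. Genes of mesothelium, the cells that line the same cavities, were also higher, with a summed level of 16.30 to 16.75 in bleomycin lungs and 16.18 to 16.27 in PBS lungs, and their part in these rises was not tested. A second probe of Prg4 differed by 0.03.

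Acute-phase genes, which inflamed tissue and liver switch on, included the largest called rise among genes above the median level whose call held without PBS replicate 3. Saa3, a serum amyloid A protein made in inflamed tissue, was 9.82, 11.40, 12.06, 9.78 and 10.17 in bleomycin lungs and 7.73, 7.86 and 7.81 in PBS lungs. All 5 bleomycin arrays were higher, replicates 2 and 3 the most, and the rise was 2.85 ± 0.54 (7.19-fold, adjusted p = 0.00717). It was 2.85 without PBS replicate 3 and 3.29 without bleomycin replicates 4 and 5. Lcn2, an iron-binding lipocalin, was 13.76 to 15.11 in bleomycin lungs and 13.44 to 13.62 in PBS lungs (0.91 ± 0.20). Hamp, the iron hormone hepcidin, was 9.33, 9.25, 9.31, 9.30 and 9.88 in bleomycin lungs, against 8.37, 8.71 and 8.34 in PBS lungs (0.94 ± 0.20, adjusted p = 0.00961). Saa1 did not pass (0.60 ± 0.37, adjusted p = 0.289). Of 25 members 8 rose (32.0%) and none fell, with a median of 0.39, and 5 rose without PBS replicate 3.

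The 250 bases before the start of Saa3 are shown because it rose the most (GRCm38.p6, chr7:46715677-46715926, minus strand). The window holds 1 C/EBP match and 1 GATA match, both on the opposite strand, and no PU.1 or NF-kB match.
Saa3: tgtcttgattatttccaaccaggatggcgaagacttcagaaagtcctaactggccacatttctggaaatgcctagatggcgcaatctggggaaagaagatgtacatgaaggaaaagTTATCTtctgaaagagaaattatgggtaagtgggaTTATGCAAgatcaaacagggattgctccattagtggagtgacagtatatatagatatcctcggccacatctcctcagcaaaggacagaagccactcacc

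Of 36 inflammatory chemokines and cytokines 7 rose (19.4%) and none fell, with a median of 0.25, and 3 rose without PBS replicate 3. Those 3 were Ccl6, Ccl9 and Ccl12, which attract monocytes in the mouse. Ccl6 was 14.96, 15.04, 15.13, 15.30 and 15.26 in bleomycin lungs and 14.37, 14.52 and 14.30 in PBS lungs, with no overlap (0.74 ± 0.09, adjusted p = 0.00122). Ccl9 rose by 0.94 ± 0.18. Ccl12 rose by 0.99 ± 0.23 and lost its call without PBS replicate 1 (adjusted p = 0.0633). Ccl7, which also attracts monocytes, rose by 1.28 (adjusted p = 0.0412, and 0.0951 without PBS replicate 3). Cxcl13, which draws B cells into follicles, was 10.07, 10.60, 11.23, 9.54 and 10.15 in bleomycin lungs and 9.09, 8.60 and 7.66 in PBS lungs. Its arrays did not overlap (1.87 ± 0.49, adjusted p = 0.0219), but the call was lost without PBS replicate 2 or 3. It was the 1 member called among 15 genes of lymphoid chemokines and follicles.

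MHC class II molecules present antigen to helper T cells. Of 16 measured members 6 rose (37.5%) and 1 fell, with a median of 0.37. The members that rose numbered 10 without bleomycin replicate 1, and 4 without PBS replicate 2 or 3. Cd74, the invariant chain, was 15.22, 15.46, 15.77, 15.68 and 16.03 in bleomycin lungs and 14.80, 14.76 and 14.98 in PBS lungs. There was no overlap, and the rise was 0.78 ± 0.14 (adjusted p = 0.00632). H2-Eb1, a class II beta chain, rose by 0.55 ± 0.12 and H2-Oa, a regulator of peptide loading, by 0.71 ± 0.16. The member that fell was Ciita, the master activator of class II genes (-0.53, adjusted p = 0.034, and 0.095 without PBS replicate 3). Of 17 dendritic cell genes 6 rose (35.3%), and 1 without PBS replicate 3, Cd209a (0.42, adjusted p = 0.0308 in that fit). Fscn1 (a protein of mature dendritic cells) and Batf3 (a factor of cross-presenting dendritic cells) were among the 6. Both missed the threshold without PBS replicate 3 (adjusted p = 0.063 for Fscn1 and 0.0683 for Batf3).

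Some B-lymphocyte genes rose. Cd79a, a chain of the B-cell receptor, was 10.78, 11.09, 11.80, 11.39 and 12.32 in bleomycin lungs and 10.48, 10.26 and 10.28 in PBS lungs. Every bleomycin array was higher, replicate 5 the most (1.14 ± 0.27, adjusted p = 0.0144, and 0.0489 without PBS replicate 3). Without bleomycin replicates 4 and 5 the rise was 0.89 (adjusted p = 0.0562). Cd37, a tetraspanin of B cells, rose by 1.12 ± 0.19. Jchain, which joins secreted antibodies, was 12.01, 12.53, 13.09, 11.24 and 12.85 in bleomycin lungs, against 11.01, 10.57 and 9.90 in PBS lungs (1.85 ± 0.40, adjusted p = 0.0111, and 0.0507 without PBS replicate 3). Of 17 members 5 rose (29.4%) and none fell, 2 rose without PBS replicate 3, and 8 rose without bleomycin replicate 1. The values of 16 members were above 0. Of the 12 that did not pass, Ms4a1 was at 0.20, Ebf1 at 0.15, Pax5 at 0.03 and Cd22 at -0.11.

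Fewer genes of other lymphocytes were called. Of 17 T-cell genes none was called by limma, with a median of 0.27 and 1 gene at an unadjusted p under 0.05. The arrays of 2 of them lay higher without overlap, where 10.5% of all genes did. Of 16 genes of natural killer and cytotoxic cells 3 rose, and 1 without PBS replicate 3. Nkg7, a protein of cytotoxic granules, rose by 0.48 ± 0.14 (adjusted p = 0.0293) and lost its call in 4 of the 8 leave-outs. Of 15 genes of eosinophils and mast cells 4 rose, all of them genes of mast cells, and 2 without PBS replicate 3: Cpa3, a protease of mast cell granules, by 0.75 ± 0.17, and Kit, the stem cell factor receptor, by 0.44 ± 0.12. Kit lost its call without PBS replicate 1 or bleomycin replicate 5, and both missed the threshold without bleomycin replicates 4 and 5 (adjusted p = 0.059 for Cpa3 and 0.116 for Kit). Other mast cell genes of the list did not pass: Fcer1a (-0.65), Tpsb2 (-0.06) and Ms4a2 (0.02).

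Neutrophil genes did not move as a list, with a median of 0.00 over 18 members, 3 lower and 1 higher. Camp, the cathelicidin stored in granules, was 11.45, 11.45, 11.21, 11.52 and 11.33 in bleomycin lungs and 12.45, 12.16 and 11.92 in PBS lungs (-0.79 ± 0.12, adjusted p = 0.0033). All bleomycin arrays were lower. S100a8, a subunit of calprotectin, was 13.26 to 13.82 in bleomycin lungs and 13.72 to 14.12 in PBS lungs, which overlapped (-0.40 ± 0.11, adjusted p = 0.0292). It lost its call in 4 of the 8 leave-outs. The member that rose was Lcn2, which inflamed epithelium also makes.

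Platelet genes fell together. Of 15 measured members 8 fell (53.3%, against 6.04% of all genes) and none rose, all 15 values were below 0, and the median was -0.53. Without PBS replicate 3, 7 fell, and leaving out any 1 of the 8 arrays gave 7 to 9. Ppbp, a platelet chemokine, was 12.44, 12.09, 11.98, 11.71 and 12.50 in bleomycin lungs and 13.24, 13.26 and 13.10 in PBS lungs. All bleomycin arrays were lower (-1.05 ± 0.14, 2.07-fold, adjusted p = 0.00217). Pf4, platelet factor 4, was 13.86, 13.73, 13.51, 13.84 and 14.09 in bleomycin lungs, against 14.29, 14.44 and 14.32 in PBS lungs (-0.54 ± 0.11).

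The surface receptors of platelets followed. Clec1b, the receptor for podoplanin, was 10.75 to 11.31 in bleomycin lungs and 11.95 to 12.10 in PBS lungs (-0.94 ± 0.12). P2ry12, the ADP receptor, was 7.23 to 7.56 in bleomycin lungs and 8.16 to 8.31 in PBS lungs (-0.78 ± 0.09, adjusted p = 0.0011). Neither overlapped between groups. Gp6, the collagen receptor, and Gp9, part of the receptor for von Willebrand factor, fell (-0.78 and -0.82). Treml1, a receptor of platelet granules, was 10.93 to 11.63 in bleomycin lungs and 12.04 to 12.25 in PBS lungs but did not pass (-0.95 ± 0.57, adjusted p = 0.281). Its SDs were 0.31 in bleomycin lungs and 0.11 in PBS lungs, and its SE is drawn from all 4 groups. The SD was 1.53 in bleomycin lungs with LNA-control, where replicate 2 read 7.20 and the other arrays 10.48 to 10.74. Thbs1, which many cells express besides platelets, did not pass either (-0.33 ± 0.26). Red cell genes, a measure of retained blood, had a summed level of 18.87 to 19.23 in bleomycin lungs and 18.80 to 19.04 in PBS lungs, and none of 11 was called.

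Ppbp and Pf4 are neighbours on chromosome 5 and fell together, so the 250 bases before each start are shown (GRCm38.p6, plus strand, chr5:90768268-90768517 and chr5:90772185-90772434). Pf4 holds 1 match to the PU.1 core on the opposite strand, beside its start site, and 1 C/EBP match. None of the 4 motifs is in the window of Ppbp.
Ppbp: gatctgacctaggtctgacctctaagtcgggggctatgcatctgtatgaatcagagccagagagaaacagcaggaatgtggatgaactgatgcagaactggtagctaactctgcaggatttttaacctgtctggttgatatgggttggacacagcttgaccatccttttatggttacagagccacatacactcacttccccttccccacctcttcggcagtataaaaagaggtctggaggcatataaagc
Pf4: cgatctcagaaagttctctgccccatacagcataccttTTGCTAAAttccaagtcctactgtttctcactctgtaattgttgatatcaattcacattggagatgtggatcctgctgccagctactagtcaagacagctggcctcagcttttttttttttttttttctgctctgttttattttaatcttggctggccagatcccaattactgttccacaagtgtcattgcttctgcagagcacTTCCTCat

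**Figure D3:**
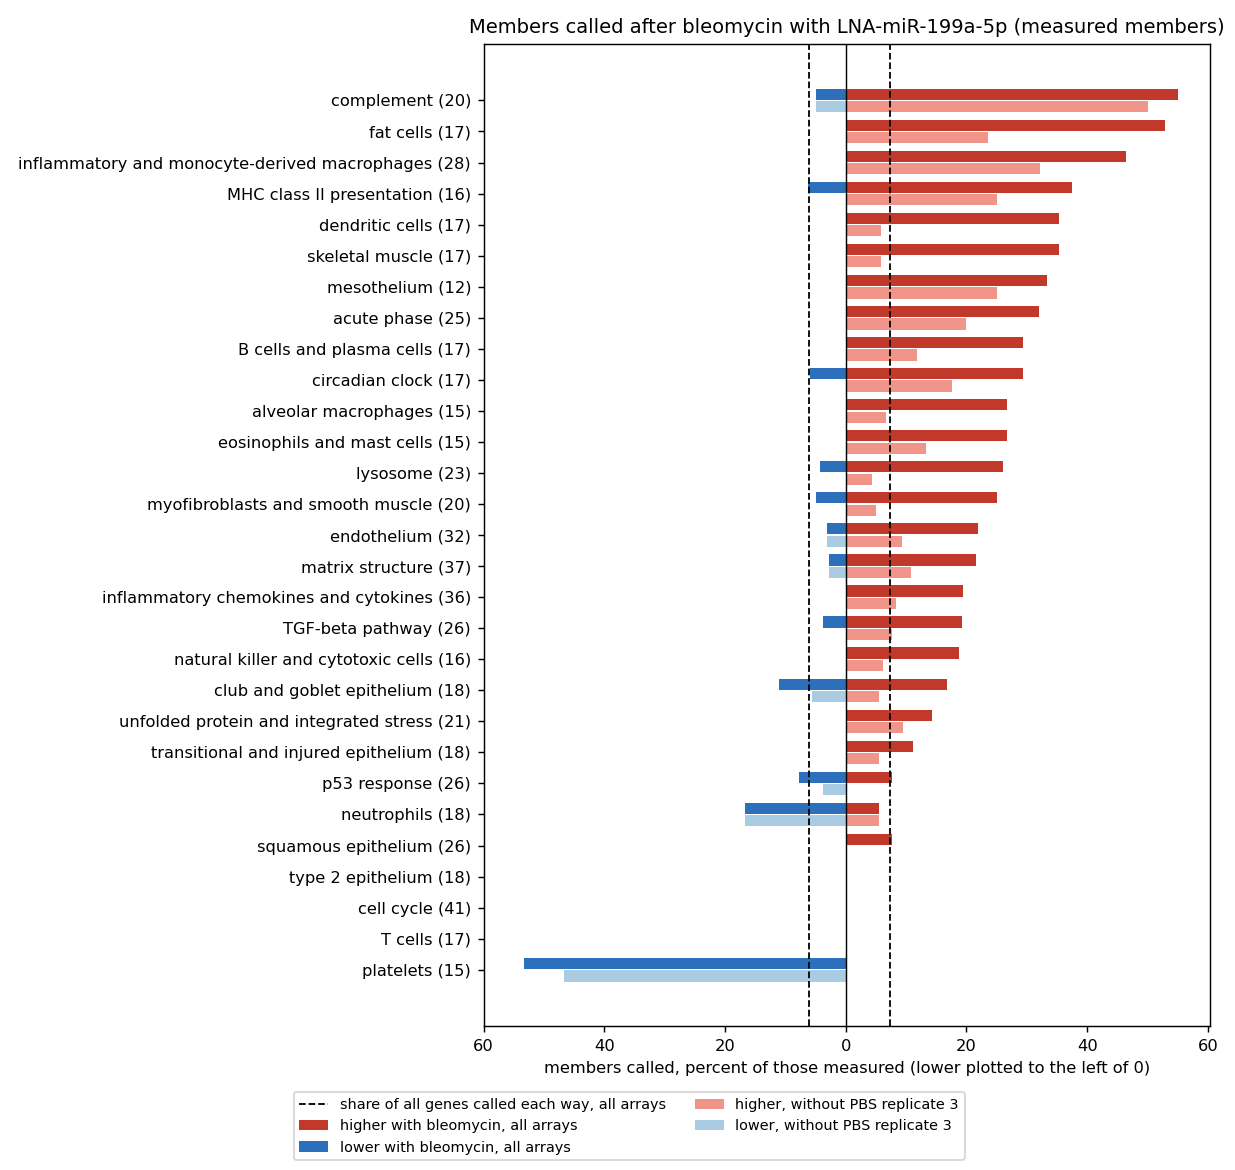
Percent of the measured members of 29 gene lists that were called higher (red, right of 0) or lower (blue, left of 0) after bleomycin with LNA-miR-199a-5p, with all arrays (dark) and without PBS replicate 3 (pale). Dashed lines give the share of all genes, 7.31% higher and 6.04% lower. Complement has 55.0% higher and platelets 53.3% lower, and the fat cell, dendritic cell and skeletal muscle bars shorten most without PBS replicate 3.

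The main genes of the scar matrix did not pass, while some other matrix genes rose. The fibrillar collagen gene Col1a1 was 13.25, 13.50, 13.35, 13.09 and 13.64 in bleomycin lungs and 13.18, 13.16 and 13.02 in PBS lungs (0.25 ± 0.16, adjusted p = 0.325). Col3a1 was 14.15, 14.36, 14.27, 14.11 and 14.40 in bleomycin lungs and 13.75, 13.99 and 13.95 in PBS lungs (0.36 ± 0.15, adjusted p = 0.106). Fn1, fibronectin, was 14.26 to 14.56 in bleomycin lungs and 14.09 to 14.29 in PBS lungs (0.26 ± 0.17, adjusted p = 0.331). Col1a1 and Fn1 overlapped between the groups, and Col3a1 did not, although it missed the threshold. Of 37 genes of matrix structure 8 rose (21.6%) and 1 fell, with a median of 0.25. The rises numbered 3 without PBS replicate 1 or 2, 4 without PBS replicate 3 or bleomycin replicate 5, 5 without bleomycin replicate 4 or without PBS replicate 2 or 3 with LNA-control, and 1 without bleomycin replicates 4 and 5.

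The matrix genes that rose were mostly not fibrillar. Col6a1, a chain of the beaded collagen VI, was 13.83, 13.67, 13.80, 14.09 and 14.55 in bleomycin lungs and 13.29, 13.27 and 13.30 in PBS lungs. It did not overlap, and bleomycin replicates 4 and 5 were highest (0.70 ± 0.15, and 0.48 without them). Fbln2, an elastic-fibre protein, rose by 0.72 ± 0.15. Col4a1 and Col4a2, which form the main basement membrane collagen, rose by 0.45 and 0.44. Postn, periostin, fell: it was 12.28, 12.13, 12.16, 12.10 and 11.74 in bleomycin lungs and 12.61, 12.60 and 12.74 in PBS lungs (-0.57 ± 0.11, adjusted p = 0.00745). Crtap, a subunit of the collagen prolyl 3-hydroxylase complex, rose by 0.50 ± 0.09, and it and Plod3 were the 2 of 21 genes of collagen processing that were called. Timp1, an inhibitor of matrix proteases, was 10.13, 11.17, 11.45, 10.32 and 10.51 in bleomycin lungs and 9.93, 10.02 and 10.15 in PBS lungs and did not pass (0.68 ± 0.34, adjusted p = 0.187).

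Of 26 genes of the TGF-beta pathway 5 rose and 1 fell, with a median of 0.00, and 2 rose and none fell without PBS replicate 3. Tgfb1, the ligand, was 10.00, 10.08, 10.43, 10.91 and 11.43 in bleomycin lungs and 9.55, 9.59 and 9.98 in PBS lungs (0.86 ± 0.24, adjusted p = 0.0307). The call was lost without PBS replicate 1, PBS replicate 2 or bleomycin replicate 4, and the rise was 0.46 without bleomycin replicates 4 and 5. Ltbp3, which holds the latent ligand in the matrix, rose by 0.46 ± 0.11, and Smad7, the inhibitor that the pathway itself induces, fell by 0.66 (adjusted p = 0.0402). Both missed the threshold without PBS replicate 3 (adjusted p = 0.0541 for Ltbp3 and 0.14 for Smad7). Acta2, smooth muscle actin, was 14.25, 14.26, 14.30, 14.93 and 15.01 in bleomycin lungs, against 14.10, 14.07 and 13.84 in PBS lungs. Bleomycin replicates 4 and 5 carried most of its rise of 0.55 ± 0.16, which was 0.27 without them (adjusted p = 0.136). The call was also lost in 5 of the 8 leave-outs. Slit2, a guidance protein of resident fibroblasts, fell by 0.83 ± 0.14, with 8.25 to 8.75 in bleomycin lungs and 9.28 to 9.39 in PBS lungs. Of 19 genes of resident fibroblasts 1 rose and 2 fell.

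Some genes of the mesothelium, the lining of lung and chest wall, rose. Of 12 members 4 rose (33.3%) and none fell, 3 without PBS replicate 3, with a median of 0.24, which was 0.11 without bleomycin replicates 4 and 5. Upk3b, a uroplakin of mesothelial cells, was 10.16, 10.09, 10.13, 10.18 and 10.25 in bleomycin lungs and 9.56, 9.62 and 9.37 in PBS lungs. The bleomycin arrays lay close together and above all PBS arrays (0.65 ± 0.09, adjusted p = 0.00217). Wt1, a transcription factor of mesothelium, was 9.92 to 10.33 in bleomycin lungs and 9.15 to 9.45 in PBS lungs (0.91 ± 0.14). Msln, mesothelin, rose by 0.51 ± 0.11. The summed level of 17 fat-cell genes was higher in the same arrays, and its part in the mesothelial rise was not tested. Calb2, a calcium-binding protein of mesothelium and nerve, was 13.27 on bleomycin replicate 4 and at most 5.43 on every other array.

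Epithelial lists differed in the share of members called, where 7.31% of all genes rose and 6.04% fell. Of 18 genes of type 2 cells none was called by limma (4 at an unadjusted p under 0.05), with a median of 0.00. None of them had arrays without overlap, against 20.7% of all genes. Of 15 genes of type 1 cells 2 rose (13.3%) and 1 fell (6.67%), against 1 and 1 without PBS replicate 3. Among 18 genes that mark injured epithelium in transition 2 rose (11.1%), and 1 rose without PBS replicate 3. Krt8 was 1 of the 2 (0.33 ± 0.10, adjusted p = 0.0496). Krt8 kept its call in 3 of the 8 leave-outs and was 0.20 without bleomycin replicates 4 and 5 (adjusted p = 0.233). Of 18 genes of club and goblet cells 3 rose (16.7%) and 2 fell (11.1%), against 1 and 1 without PBS replicate 3. Pigr, which carries antibodies across the epithelium, was 14.86 to 15.15 in bleomycin lungs and 15.58 to 15.95 in PBS lungs (-0.74 ± 0.11), although its second probe did not pass (-0.35). Scgb3a2, a secretoglobin of club cells, fell by 0.96 ± 0.24 and lost its call without PBS replicate 1 or 3. Muc5b, the airway mucin, rose by 0.48 ± 0.13 and lost its call without PBS replicate 1 or 2.

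Of 32 endothelial genes 7 rose (21.9%) and 1 fell, 3 and 1 without PBS replicate 3. The counts were 1 and 1 without bleomycin replicates 4 and 5. Selp, P-selectin, which endothelium and platelets both store, was 7.78 to 8.29 in bleomycin lungs and 7.11 to 7.41 in PBS lungs (0.74 ± 0.12), a direction opposite to the platelet list. Erg, a factor that keeps endothelium quiescent, fell by 0.75 ± 0.12, and a second probe of it did not pass (-0.18). Klf2, a factor that flow induces in endothelium, was 13.51, 13.58, 13.51, 13.17 and 13.32 in bleomycin lungs and 14.12, 14.26 and 14.12 in PBS lungs. It did not overlap (-0.75 ± 0.10, adjusted p = 0.00153), and the related Klf4 fell by 0.61 ± 0.13. Cav1, the caveolar protein, was 10.59 to 10.98 in bleomycin lungs and 10.82 to 11.05 in PBS lungs (-0.11 ± 0.10, adjusted p = 0.53). Dnm3os, the transcript that carries a miR-199a gene, differed by -0.14 ± 0.11 (adjusted p = 0.441).

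Genes of division were not called, and p53 targets were called at close to the share of all genes. None of 41 cell cycle genes was called by limma (1 at an unadjusted p under 0.05), with a median of 0.11. The arrays of 8 of them lay higher without overlap and those of 1 lower, against 10.5% and 10.1% of all genes. Of 26 p53 targets 2 rose and 2 fell (7.69% each way, against 7.31% and 6.04% of all genes). Without PBS replicate 3 none rose and 1 fell. Cdkn1a, the p53-induced inhibitor of division, was 11.17, 11.36, 11.20, 12.03 and 11.67 in bleomycin lungs and 10.90, 10.86 and 10.97 in PBS lungs. All bleomycin arrays were higher, yet the best probe missed the threshold (0.58 ± 0.22, adjusted p = 0.0836), while 9 of its 12 rows were called when each row of the table was tested by itself, and the spread of values by row was 0.08 to 0.66. Gdf15, a stress hormone and p53 target, differed by 0.05 ± 0.12. Rrm2b, a p53-induced ribonucleotide reductase, was 5.82 to 6.78 in bleomycin lungs and 6.81 to 7.82 in PBS lungs (-0.96 ± 0.20), and its second probe differed by -0.09. Chac1, a target of the integrated stress response, rose by 0.76 ± 0.12.

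Of 17 clock genes 5 rose (29.4%) and 1 fell, against 3 and 0 without PBS replicate 3 and 1 and 0 without bleomycin replicates 4 and 5. Nr1d1, a repressor of the clock, was 10.26, 10.15, 10.28, 10.89 and 10.96 in bleomycin lungs and 9.48, 9.40 and 9.29 in PBS lungs (1.12 ± 0.25, adjusted p = 0.0119). Dbp, a clock output factor, rose by 0.80 ± 0.18, Bhlhe40, another repressor, by 0.63 ± 0.12 and Cry1, a repressor too, fell by 0.44 (adjusted p = 0.0127). Dbp and Cry1 missed the threshold without PBS replicate 3 (adjusted p = 0.052 and 0.0546), and Nr1d1 missed it without bleomycin replicates 4 and 5 (adjusted p = 0.0676). The hour of collection is not stated, and its part in these values was not tested.

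Cyp26b1, which degrades retinoic acid, had the largest fall among called genes above the median level whose arrays did not overlap and whose call held without PBS replicate 3. It was 10.41, 11.72, 12.39, 10.27 and 10.85 in bleomycin lungs and 12.50, 13.61 and 14.21 in PBS lungs, so that bleomycin replicate 3 nearly reached PBS replicate 1 (-2.31 ± 0.48, 4.97-fold, adjusted p = 0.00929). Cyp2e1, a cytochrome that oxidises ethanol, was 12.86 to 13.39 in bleomycin lungs and 11.91, 11.64 and 10.98 in PBS lungs (1.62 ± 0.26). PBS replicate 3 was the lowest array for it, and the rise was 1.35 without that array. Emilin2, an extracellular glycoprotein, rose by 1.13 ± 0.14 and Actn1, an actin crosslinker, by 1.09 ± 0.24. St6galnac1 (a sialyltransferase), Klra1 (a receptor of natural killer cells), Ermn (a cytoskeletal protein of myelinating cells), Gabrp (a GABA receptor subunit) and Sox5 (a transcription factor) fell (-1.56, -1.44, -1.20, -1.15 and -1.06). For Sox5, Ermn and St6galnac1 other probes moved less, from -0.45 to 0.06.

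The same treatment after LNA-control called 3651 genes (17.5%; 9.6% higher and 7.9% lower), and a test of the difference between the bleomycin effects, with LNA-miR-199a-5p minus with LNA-control, called 1462 genes (7.01%). Of these 641 were higher (3.07%) and 821 lower (3.94%), and 418 were also among the 2786 genes above. No array entered both effects. A gap between the PBS groups of the 2 LNAs also enters the difference, and its share was not tested. Means in PBS lungs with LNA-miR-199a-5p and with LNA-control were 8.87 and 7.98 for Gdf15 and 9.57 and 8.88 for Gpnmb. In the same order they were 10.02 and 9.53 for Trem2 and 10.91 and 10.37 for Cdkn1a. Fn1 was at 14.19 and 14.17 and Col1a1 at 13.12 and 13.26. The count of 1462 was 818 without PBS replicate 1 and 840 without PBS replicate 2 of the inhibitor group. Leaving out a PBS array with LNA-control gave 632 to 844, leaving out bleomycin replicate 1, 4 or 5 with LNA-control gave 913, 918 and 912, and leaving out replicate 3 there gave 2215.

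Macrophage genes were mostly lower in this difference. For Spp1 the bleomycin effect was -0.02 with LNA-miR-199a-5p and 3.78 with LNA-control, a difference of -3.80 ± 0.30 (adjusted p = 2.81e-06). The effect on Trem2 was 0.67 with LNA-miR-199a-5p and 3.47 with LNA-control (difference -2.79 ± 0.14, adjusted p = 2.85e-08). In the same order the effects were 0.46 and 2.93 for Gpnmb (-2.47 ± 0.15) and 0.46 and 3.00 for Mmp12 (-2.54 ± 0.35). C1qa, C1qb and C1qc rose with both, less with LNA-miR-199a-5p (differences -1.24, -1.30 and -1.12). Of 28 macrophage genes 17 were lower in this difference and none higher, with a median of -0.78. For Saa3 the effects were 2.85 and 2.84, a difference of 0.01 ± 0.76 (adjusted p = 0.995), an error too wide to show that the effects are alike.

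Some stress and matrix genes were lower in the difference as well, while Chac1 (0.83), Emilin2 (0.90) and the matrix proteoglycan Dcn (0.61) were higher. The effect on Gdf15 was 0.05 with LNA-miR-199a-5p and 2.86 with LNA-control (difference -2.81 ± 0.17). In the same order it was 0.58 and 1.89 for Cdkn1a (-1.32 ± 0.30), 0.68 and 2.57 for Timp1 (-1.89 ± 0.48), 0.25 and 1.23 for Col1a1 (-0.98 ± 0.23) and 0.26 and 1.49 for Fn1 (-1.24 ± 0.24). Of 41 cell cycle genes 12 were lower in the difference, with a median of -0.80, and of 37 matrix genes 15 were lower and 1 higher. For Fabp1, a fatty acid carrier, the effect was -0.41 with LNA-miR-199a-5p and -2.91 with LNA-control (2.50 ± 0.27).

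Other genes had a higher bleomycin effect with the inhibitor. Hamp rose by 0.94 with LNA-miR-199a-5p and fell with LNA-control (-1.30), and both directions passed (difference 2.23 ± 0.28, adjusted p = 0.000254). Upk3b likewise rose by 0.65 and, with LNA-control, fell (-0.40; difference 1.05 ± 0.12). The effect on Cd79a was 1.14 with LNA-miR-199a-5p and -0.67 with LNA-control (1.81 ± 0.38). In the same order it was 1.12 and -0.30 for Cd37 (1.42 ± 0.27), 0.52 and -0.07 for C2 (0.59 ± 0.12) and 0.91 and -0.08 for Wt1 (0.99 ± 0.20). For these genes PBS lungs were lower with LNA-miR-199a-5p than with LNA-control. The PBS means were 9.51 and 10.01 for Upk3b, 10.34 and 10.82 for Cd79a and 10.27 and 10.72 for Cd37. C2 was at 12.47 and 12.76, Wt1 at 9.30 and 9.64 and Hamp at 8.48 and 8.59. The summed mesothelial level of PBS lungs with LNA-control was 16.35 to 16.40, within the 16.30 to 16.75 of bleomycin lungs with LNA-miR-199a-5p. Of 17 B-cell genes 9 were higher in the difference and none lower, of 16 genes of natural killer cells 10 and none, and of 32 endothelial genes 14 and none. Of 15 platelet genes 8 fell with LNA-miR-199a-5p and 14 with LNA-control, and 3 members were higher and 1 lower in the difference (median 0.62). Ppbp fell with both (-1.05 with LNA-miR-199a-5p and -1.64 with LNA-control), and the difference did not pass (0.59 ± 0.20, adjusted p = 0.0869). For Pf4 the effects were -0.54 and -1.22 in the same order (0.68 ± 0.15, adjusted p = 0.0143).

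**Figure D4:**
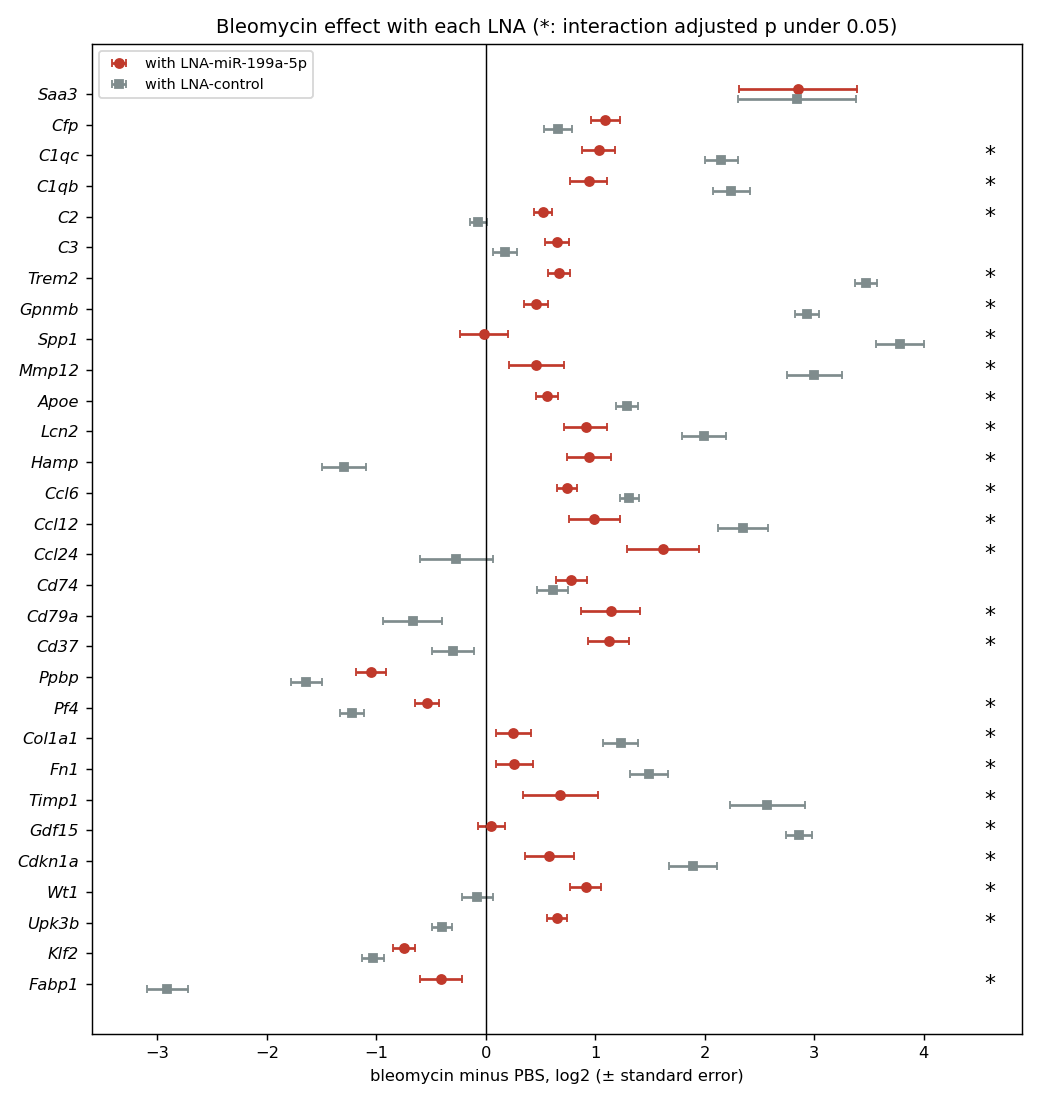
Bleomycin minus PBS on the log2 scale (horizontal axis) with its standard error for 30 genes, with LNA-miR-199a-5p (red circles) and with LNA-control (grey squares). Stars mark genes whose difference between the effects had an adjusted p under 0.05. Spp1 and Gdf15 stand near 0 with LNA-miR-199a-5p and at 3.78 and 2.86 with LNA-control, while Saa3 stands at 2.85 and 2.84.

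Genes of tissues other than lung varied between arrays. The summed level (log2 of summed intensity) of 26 squamous genes was 17.23 to 18.10 in bleomycin lungs and 13.55 to 17.66 in PBS lungs, and that of 17 skeletal muscle genes 16.66 to 17.62 in bleomycin lungs and 13.14 to 17.03 in PBS lungs. For both lists PBS replicate 3 was the lowest array and the other 2 PBS arrays overlapped or nearly met the bleomycin arrays. The medians of the 2 lists were 0.19 and 0.54 without that array, against 0.93 and 1.34 with it. Of 17 fat-cell genes 9 rose (52.9%), and 4 without PBS replicate 3, with medians of 0.82 and 0.32, and 5 without PBS replicate 2. Adipoq, adiponectin, was 12.46, 12.47, 12.59, 12.26 and 12.69 in bleomycin lungs and 12.01, 11.31 and 9.99 in PBS lungs (1.39 ± 0.32, adjusted p = 0.0142, and 0.0551 without PBS replicate 3). Brown fat, heart, thymus, cartilage and red cell genes had summed levels whose ranges overlapped between the groups. How far such tissue bears on the lung genes above was not tested.

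Hormone genes of the pituitary, looked at after their values were seen, were high on 2 PBS arrays. Prl, prolactin, was 4.82 to 5.23 in bleomycin lungs and 11.43, 10.38 and 5.43 in PBS lungs, and Gh, growth hormone, was 5.11 to 5.60 in bleomycin lungs and 10.84, 9.80 and 5.46 in PBS lungs. Cga, the shared hormone alpha chain, was 5.00 to 5.19 in bleomycin lungs and 9.23, 8.40 and 5.24 in PBS lungs. Replicates 1 and 2 carried the signal and replicate 3 did not. Prl, Cga and Gh are therefore among the called falls (Prl -4.00 ± 0.83, adjusted p = 0.00914) on the strength of those 2 arrays, the call of Gh being lost without either and that of Cga without replicate 2.

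**Figure D5:**
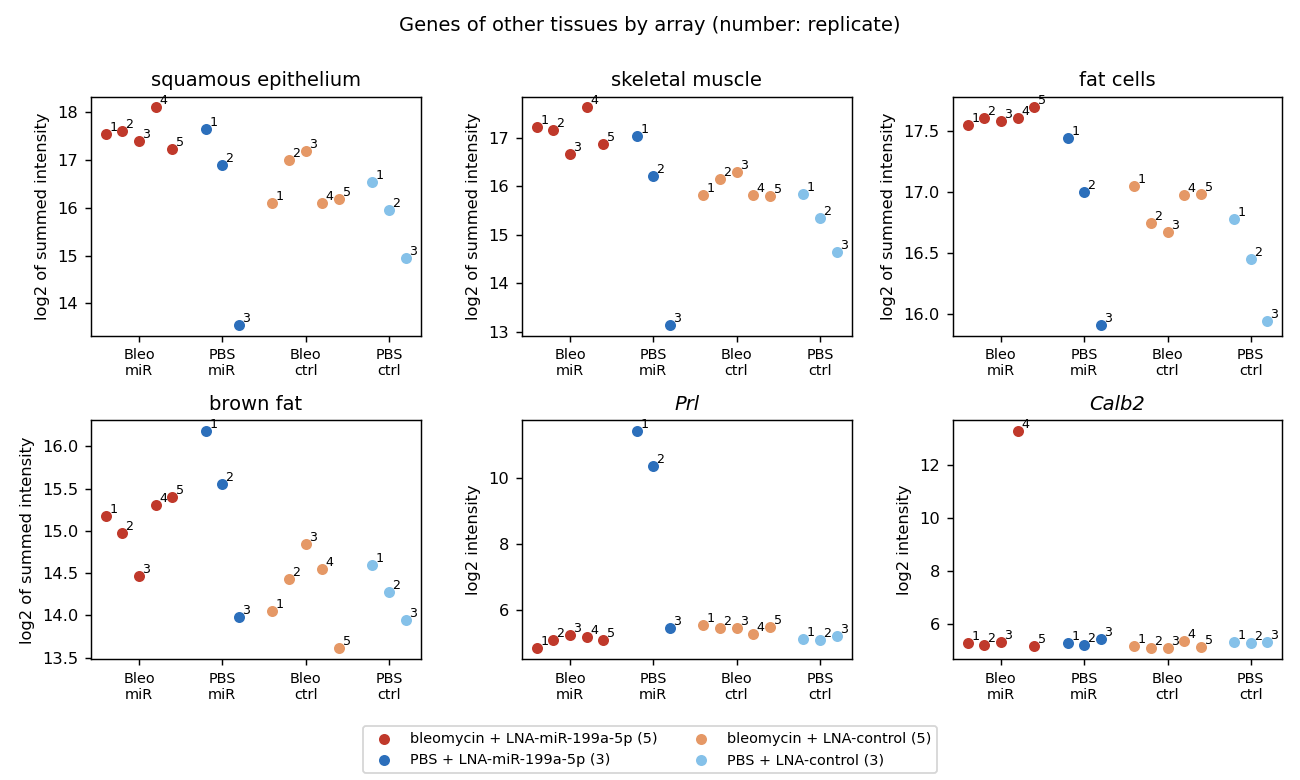
Signal of genes from other tissues on each of the 16 arrays, with the replicate number beside each point: log2 of the summed intensity of squamous, skeletal muscle, fat-cell and brown-fat genes, and log2 intensity of Prl and Calb2. PBS replicate 3 with LNA-miR-199a-5p is lowest for squamous genes (13.55), Prl is at 11.43 and 10.38 on PBS replicates 1 and 2 of that group, and Calb2 is at 13.27 on bleomycin replicate 4.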

How the data were processed

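The deposited values are log2 intensities, made from 1-colour Agilent arrays of whole-lung RNA. Per the submitters' processing notes limma was used. The values came quantile normalized, since no 2 arrays differed by more than 0.0974 at any rank. Background correction and scanner flags are not given in the sources used here, so dim genes could not be bounded. The table has 62976 spots from 4.615 to 18.324. Of these, 31465 had 1 gene symbol in the platform table, 31511 had none and 0 had several. RefSeq matched 29050 probes and changed 2933 symbols. For 6086 genes with several rows, some of them repeated spots of 1 probe, the row with the highest mean over the 16 arrays was kept, which left 20863 genes. Of 921 called genes with several rows, 22 had a row called the other way and 650 had all rows in 1 direction.

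A single model with 1 mean for each of the 4 groups took in all 16 arrays (limma 3.58.1, R 4.3.3, lmFit and eBayes, two-sided, Benjamini-Hochberg adjustment over all genes). Contrasts were bleomycin minus PBS within each LNA, and their difference. Arrays have no count depth, so their number sets the precision. Correlations within groups were 0.985 to 0.997, and no array repeated another. The fit was tested on simulated data.

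The 8 arrays, 47 gene lists (1018 members, 970 measured) and the rule for named genes were chosen with earlier results of these data known. The rule takes the 12 largest called rises and falls above the median level of 8.47 whose arrays do not overlap and whose call holds without PBS replicate 3, up to 4 members per list with the smallest p, up to 6 each way for the difference between effects, and fixed genes of interest. Only part of them are named. Outside the rule, C1qa, C1s1, C3ar1, Cd55, Apoe, Saa1, Pf4, Gp9, Treml1, Thbs1, Ccl7, Ciita, Cd209a, Ms4a1, Ebf1, Pax5, Cd22, Smad7, Col4a1, Col4a2, Prg4 and the genes named with it, the pituitary genes and Calb2 were chosen after their values were seen. Alternatives were leaving out each array, the 8 arrays alone, a replicate block, the mean over a gene's rows, a filter at the median, cyclic loess, array weights, RNA integrity as a covariate and an intensity trend with robust prior, and, chosen after seeing the data, leaving out bleomycin replicates 4 and 5 or each LNA-control array. Promoter and microRNA sequences are RefSeq's (GRCm38.p6), and the 5 promoters sought by symbol were all found.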

Additional observations from a re-analysis of the deposited data

Results flagged for a closer look

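In the group of 5 bleomycin lungs, some arrays stood far from the other 4, in a gap test that chance passes in about 1 of 20 groups. Many genes were looked at this way, so some of those that follow would pass by chance alone. Replicate 5 was high for Hamp (9.88) and Ltbp3 (13.39). Replicate 4 was high for Calb2 (13.27), Krt13 (15.73), Chac1 (10.58) and Scgb1a1 (18.32, the ceiling of the table) and low for Wt1 (9.92). Groups of 3 arrays were not tested this way.

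The bleomycin effect with LNA-miR-199a-5p minus that with LNA-control passed the limma test of the difference (adjusted p under 0.05) for the genes that follow, with the size of the difference given. Among macrophage and complement genes these were Spp1 (-3.80), Trem2 (-2.79), Mmp12 (-2.54), Gpnmb (-2.47), C1qb (-1.30), C1qa (-1.24), C3ar1 (-1.13), C1qc (-1.12), Apoe (-0.73) and, the other way, C2 (0.59). Of 6 genes of resident and cavity macrophages picked after their values were seen, Alox15 (1.84), Vsig4 (1.75), Cd5l (1.73) and Prg4 (1.67) were higher, and Fcna (1.70, adjusted p = 0.0564) and Folr2 (0.51, adjusted p = 0.183) did not pass. PBS means with LNA-miR-199a-5p and with LNA-control were 6.34 and 6.99 for Alox15 and 6.57 and 7.68 for Vsig4. In the same order they were 6.99 and 7.86 for Cd5l and 6.87 and 7.70 for Prg4. The chemokine Ccl24 was higher (1.89).

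Among acute-phase, chemokine and leukocyte genes they were Ccl12 (-1.35), Lcn2 (-1.08) and Ccl6 (-0.58), and, higher, Hamp (2.23), Cd79a (1.81), Cd37 (1.42), Nkg7 (0.93), Klrb1c (0.92), H2-Oa (0.91), Kit (0.88) and S100a8 (0.83). Of the platelet genes Pf4 (0.68) was higher, and Thbs1 (-1.45) lower.

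Among stress, matrix and fibroblast genes they were Gdf15 (-2.81), Timp1 (-1.89), Cdkn1a (-1.32), Fn1 (-1.24), Slit2 (-1.12), Col1a1 (-0.98), Sox5 (-0.79) and Postn (-0.55), and, higher, Emilin2 (0.90), Chac1 (0.83) and Dcn (0.61). In mesothelium, epithelium and endothelium they were Upk3b (1.05), Wt1 (0.99), Sox18 (0.72), Muc5b (0.71), Selp (0.59) and Scnn1g (-0.53), and the metabolic genes Fabp1 (2.50) and Cyp2e1 (1.51). Prl (-4.30) and Pomc (-0.89) passed as well, with the signal of PBS replicates 1 and 2.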

How the results depend on the processing

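The mean over all rows of a gene, the filter at the median level, cyclic loess, array weights and the intensity trend left 2497 to 2841 genes called for bleomycin, against 2786. The count was 1186 to 3534 when 1 array was left out, 1162 with RNA integrity as a covariate, 820 without bleomycin replicates 4 and 5 and 271 with the 8 arrays alone, a fit with fewer arrays. The difference between the bleomycin effects called 1462 genes, 632 to 2215 when 1 array was left out, 733 with RNA integrity and 3862 with array weights. It has no value in the fit of 8 arrays, and genes below the median have none under the filter. The cause of these shifts was not tested.

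Deviations of same-numbered bleomycin and PBS arrays had correlations of 0.14, 0.43 and 0.04. Each of these bleomycin arrays correlated best with the PBS array of its own number, but the numbers are not known to pair animals. With LNA-control the correlations were -0.02, 0.01 and -0.17, and no bleomycin array matched its own number best. Nor did any between bleomycin arrays of the 2 LNAs (0.08, -0.59, -0.51, -0.23 and -0.17). Between PBS arrays of the 2 LNAs the correlations were 0.54, 0.20 and 0.62. There PBS replicates 1 and 3 with LNA-miR-199a-5p matched their own number best, and replicate 2 did not. With a replicate block 663 genes were called, 650 of them called without it, and 947 for the difference between effects. With the block Gdf15 was -0.06 and the medians were 0.06 (TGF-beta pathway), 0.23 (club and goblet cells) and -0.05 (thymocytes).

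Genes near 0 turned sign: Spp1 was -0.09 to 0.03 when 1 array was left out, 0.04 with array weights, 0.12 with RNA integrity and 0.09 without bleomycin replicates 4 and 5. Gdf15 was -0.02 to 0.09 when 1 array was left out, 0 with array weights and -0.02 without bleomycin replicates 4 and 5. The difference between effects for Saa3 was -0.40 to 0.23 when 1 array was left out, -0.01 with cyclic loess and -0.11 with array weights. Of the other values of named genes, 203 lost their call under 1 of the alternatives and 6 gained one, as did 37 and 3 of those for the difference between effects.

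Median changes of lists ran, when 1 array was left out, from 0.26 to 0.36 (macrophages), -0.01 to 0.06 (TGF-beta pathway), -0.08 to 0.09 (type 2 cells), 0.06 to 0.18 (type 1 cells), 0.10 to 0.23 (club and goblet cells) and -0.09 to 0.05 (p53 response). With the mean over rows they were 0.03 (type 1 cells) and 0.06 (thymocytes), and above the median level 0.54 (complement), 1.96 (squamous epithelium) and -0.17 (thymocytes). They were 0.16 for the lysosome with array weights and 0.02 for thymocytes with RNA integrity. Without bleomycin replicates 4 and 5 they were 0.02 (eosinophils and mast cells), 0.11 (TGF-beta pathway), 0.11 (mesothelium), 0.13 (lysosome) and 0.01 (ribosomal proteins). No background flags were given, so falls of dim genes may be understated.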

Other observations

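Lists not described above are given here for bleomycin with LNA-miR-199a-5p, where 7.31% of all genes rose and 6.04% fell. Of 23 lysosomal genes 6 rose (26.1%, against 7.31% of all genes) and 1 fell, and 1 rose without PBS replicate 3, Ctsz, a cathepsin (0.52, adjusted p = 0.0328 in that fit). Of 22 genes of cholesterol and fatty acid synthesis 3 rose, among them Dhcr7, the last enzyme of cholesterol synthesis (0.67, adjusted p = 0.00955), and 1 without PBS replicate 3. Of 21 genes of the unfolded protein and integrated stress response 3 rose, of 29 interferon-stimulated genes 2 rose (0 without PBS replicate 3), and of 21 immediate early genes 2 rose and 2 fell. Jund, an AP-1 subunit, was 14.24 to 15.24 in bleomycin lungs and 13.49 to 13.81 in PBS lungs (0.93 ± 0.18, adjusted p = 0.00741).

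Of 28 matrix proteases and inhibitors 3 rose, Plaur (the urokinase receptor, 0.48 ± 0.11) among them, and 2 fell, against 1 and 0 without PBS replicate 3. Of 22 ciliated-cell genes 2 fell, and 0 without that array. One gene fell of 23 NRF2 targets and 1 of 21 genes of the respiratory chain, and 1 rose of 24 ribosomal protein genes, 1 of 15 brown-fat genes and 1 of 19 heart-muscle genes. None of 14 thymocyte genes and none of 15 cartilage genes was called by limma, with 1 and 3 at an unadjusted p under 0.05. The limma test of all genes found 6279 at an unadjusted p under 0.05.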
